A study of Chelonus formosanus with 6 samples.

Results

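Of the unigenes named retinol dehydrogenase 14 in head RNA of the parasitoid wasp Chelonus formosanus, 2 differ between the sexes in opposite directions. This pair is TRINITY_DN26289_c1_g1 and TRINITY_DN26289_c2_g8. These 2 of the 41986 unigenes in the deposited table were picked because the first was higher in female heads and the second strongly higher in male heads. Their difference between the sexes is therefore given as a description, with no test. The study sequenced poly(A) RNA of heads at day 1 from 3 female and 3 male libraries, with no genotype or treatment given in the labels, to choose reference genes for quantitative PCR. A unigene is the longest transcript of a cluster assembled from the reads without a genome and stands loosely for a gene. The labels do not say whether the libraries of a sex came from separate animals, pools or 1 extract, so every p-value measures the spread between these libraries, which may be technical.

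Retinol dehydrogenases belong to the short-chain dehydrogenases/reductases, a large family of enzymes that move hydrogen between a substrate and a nicotinamide cofactor. They interconvert retinol, the alcohol, and retinal, the aldehyde. Retinal or a close relative is the light-absorbing chromophore that opsins carry in insect eyes, and in Drosophila short-chain dehydrogenases of the retina help to recycle it. Many family members accept other alcohols, aldehydes or ketones, so the name of a unigene, taken from its closest database entry, does not fix its substrate. No enzyme activity was measured in these data.

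The annotation placed both unigenes of the pair in the same family. Each had a Microplitis demolitor protein, from another braconid wasp, as its closest entry, the short-chain dehydrogenase domain, the same 2 gene ontology terms (cytosol and oxidoreductase activity) and the same orthologous group. The deposited columns differ on the closer relative. For c2_g8 the best curated entry was Retinol dehydrogenase 14 of the mouse, while for c1_g1 it was human Retinol dehydrogenase 12, and c1_g1 alone of the pair was assigned to a pathway entry, that of retinol metabolism. The unigene c1_g1 was 1136 bases long with 2 assembled transcripts and c2_g8 was 1290 bases long with 1. Another unigene of the same assembly cluster, TRINITY_DN26289_c2_g7, 2099 bases long with 2 transcripts, also had retinol dehydrogenase 14 of Microplitis demolitor as its closest entry. It was not picked on its values. Among unigenes with a hymenopteran closest entry, the name thus covers 3. In the identifiers DN26289 is a cluster of reads, c1 and c2 are separate components of it and g numbers the genes within a component, so c2_g7 and c2_g8 lie in 1 component and c1_g1 in another.

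The female-high unigene c1_g1 was abundant in both sexes. It stood at 65.7, 63.5 and 69.6 CPM in females 1 to 3, and at 25.6, 30.1 and 28.1 CPM in males 1 to 3 (CPM are counts scaled to a common library size). Every female library lay above every male library, and the gap between the sexes was wider than the range within either. The sexes did not overlap in 17.3% of all unigenes tested, and the way c1_g1 was picked favours this. The means were 66.3 ± 3.12 CPM for females and 27.9 ± 2.27 for males (SD; n = 3 libraries in each group, here and for all means below), a log2 difference of 1.25 (SE 0.09), or 2.37-fold. Behind these values stood 3784 reads from females and 1525 from males.

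The male-high unigene c2_g8 had few reads in females. It had 30, 15 and 17 counts in females 1 to 3, and 370, 354 and 232 counts in males 1 to 3. On the CPM scale these were 1.66, 0.79 and 0.85 in females and 20.1, 20.0 and 12.5 in males. Female 1 lay above the other females and male 3 below the other males. The sexes did not overlap, as for 17.3% of all unigenes tested, and the way c2_g8 was picked favours this. The means were 1.10 ± 0.48 CPM for females and 17.5 ± 4.40 for males, a log2 difference of -4.00 (SE 0.29), or 16-fold higher in males. Summed over the libraries of a sex, 62 reads in females and 956 in males gave a ratio of 15.6 after division by total counts, with a 95% interval of 12.1 to 20.5 that covers counting error only. Without female 1 the log2 difference was -4.40. The libraries of a sex varied more in c2_g8 (coefficient of variation 44.0% in females and 25.1% in males) than in c1_g1 (4.71% and 8.14%).

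The place of the pair among all unigenes is given as a description and is not a test, since both were picked on this contrast. Of 21196 unigenes tested over the whole table, 2.8% passed edgeR's quasi-likelihood test at an adjusted p under 0.05, of which 1.69% of those tested were higher in females and 1.11% higher in males. By the size of the difference c1_g1 was number 115 of the 358 higher in females and c2_g8 number 19 of the 235 higher in males. The authors' deposited log2 fold changes (female over male), from the same libraries, were 1.26 for c1_g1 and -3.99 for c2_g8.

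The remaining retinol dehydrogenase 14 unigene, c2_g7, did not pass the test between the sexes. It stood at 106, 107 and 103 CPM in females 1 to 3, and at 107, 115 and 124 CPM in males 1 to 3. The means were 105 ± 1.82 CPM for females and 115 ± 8.67 for males, and per length 62.6 ± 0.75 and 63.4 ± 3.64 TPM. The female values lay in a narrow band that the lowest male value just cleared, and 17.3% of all unigenes tested had no overlap between the sexes. The log2 difference was -0.13 (SE 0.08; adjusted p = 0.59 by edgeR's quasi-likelihood test), with a 95% interval of -0.30 to 0.04. A difference between the sexes as large as that of either picked unigene lies outside this interval.

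**Figure D1:**
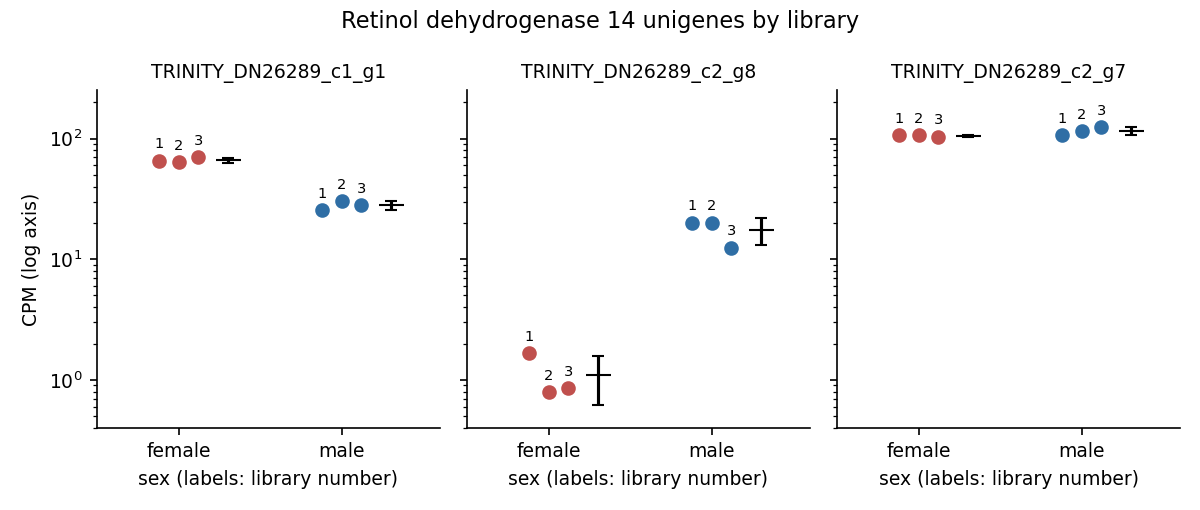
CPM (log axis) of the 3 retinol dehydrogenase 14 unigenes in each of 3 female (red) and 3 male (blue) libraries, numbered, with the mean and SD of each sex in black beside the points. In c1_g1 the females lie between 63.5 and 69.6 and the males between 25.6 and 30.1, in c2_g8 the females lie between 0.79 and 1.66 and the males between 12.5 and 20.1, and in c2_g7 all 6 libraries lie between 103 and 124.

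Levels of different unigenes were compared per length, as TPM (counts divided by length and scaled to a common sum, the authors' values). In females c1_g1 stood at 81.9 ± 4.57 TPM and c2_g8 at 1.14 ± 0.50 TPM, and in each female library c1_g1 was between 47.1 and 97.6 times the level of c2_g8. In males c1_g1 stood at 32.3 ± 3.001 TPM and c2_g8 at 16.97 ± 4.56 TPM, a ratio between 1.52 and 2.68. So c1_g1 was the more abundant of the pair in all 6 libraries, and c2_g8 came near it in males and not in females. Of all unigenes in the table, 2.17% had a lower mean TPM than c2_g8 in females and 84.5% did in males. The same shares for c1_g1 were 96.2% in females and 90.6% in males.

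The make-up of the 3 retinol dehydrogenase 14 unigenes differed between the sexes in every library. In females c1_g1 held 56.2% ± 1.62 of their summed TPM, c2_g7 43.0% ± 1.53 and c2_g8 0.78% ± 0.34. In males c2_g7 held 56.3% ± 3.75, c1_g1 28.6% ± 1.20 and c2_g8 15.03% ± 3.85. The leading unigene was thus c1_g1 in every female library and c2_g7 in every male one. The summed level was 146 ± 4.15 TPM in females and 113 ± 5.99 TPM in males, and the lowest female library (141 TPM) lay above the highest male library (120 TPM). The pair alone summed to 83.1 ± 4.55 TPM in females and 49.3 ± 6.05 TPM in males. When the counts of the pair were added and fitted as 1 gene, the log2 difference was 0.57 (SE 0.09), 1.48-fold, in the direction of c1_g1. The shares, the leading unigene and the summed levels all include the pair. Like the added value, they rest on the contrast the pair was picked on and have no test.

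**Figure D2:**
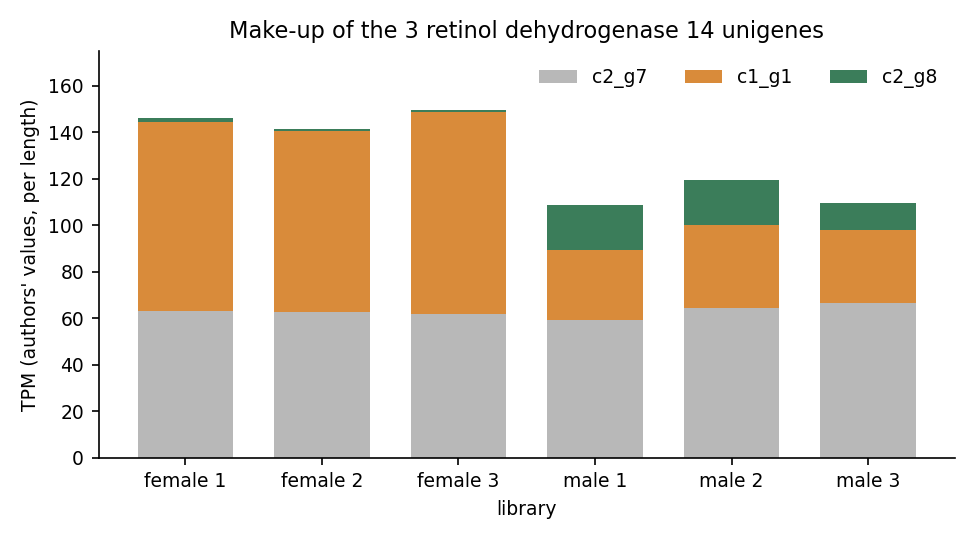
TPM of the 3 retinol dehydrogenase 14 unigenes stacked for each library (bars start at 0; gray c2_g7, orange c1_g1, green c2_g8). The gray part is near 63 TPM in the mean of both sexes, the orange part is larger in the female libraries and the green part is visible mainly in the male libraries, where it holds between 10.7% and 18.0% of the sum.

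Reads of near-identical unigenes can be divided between them by the counter, which then gives counts that are not whole. The counts of c1_g1, c2_g8 and c2_g7 were whole in all 6 libraries, as were those of 86.1% of all unigenes and 77.5% of those tested. Of the other described unigenes of the cluster, the counts of TRINITY_DN26289_c2_g3, TRINITY_DN26289_c2_g2 and TRINITY_DN26289_c2_g12 were whole in none of the 6. Whole counts record that no fraction of a read was assigned, and do not show how alike the sequences of the pair are. That was not measured here.

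The cluster DN26289 holds more than dehydrogenases. Besides the 3 retinol dehydrogenase 14 unigenes it has a pair named for protein TRC8, a ubiquitin ligase of the endoplasmic reticulum, 1 uncharacterized protein and 6 unigenes with no description. Of the 10 unigenes other than the pair, 6 had enough counts to be tested and none was called by edgeR, against 2.8% of all unigenes. Before edgeR's adjustment 0 had p under 0.05, against 12% of all unigenes. DESeq2 called 0, against 3.85% of all unigenes. The longer TRC8 unigene, c2_g12, had a mean of 28.0 ± 1.98 CPM for females and 30.3 ± 3.17 for males (adjusted p = 0.778). The shorter, c2_g2, stood at 1.69 ± 0.69 and 1.31 ± 0.46 CPM (adjusted p = 0.81). The uncharacterized c2_g3 stood at 5.03 ± 1.09 and 6.33 ± 0.27 CPM (adjusted p = 0.568; these p-values are edgeR's, over all unigenes tested). The cluster's other described unigenes therefore gave no call in either direction.

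Other retinol dehydrogenases of the wasp were chosen by their name and a hymenopteran closest entry, so their differences can be tested. There were 9 besides the pair, c2_g7 among them, and all 9 were tested. None was called by edgeR, against 2.8% of all unigenes and 4.69% of those with a hymenopteran closest entry. Before edgeR's adjustment 2 had p under 0.05, against 12% of all unigenes. DESeq2 called 0, against 3.85% of all unigenes. Their log2 differences ran from -0.51 to 0.32 with a median of -0.06, beside a median of 0.00 over all unigenes tested. The median size of the difference, regardless of sign, was 0.13 for these 9 and 0.16 over all unigenes.

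The smallest p among them belonged to retinol dehydrogenase 10-B (TRINITY_DN24631_c0_g1), named for an enzyme that in vertebrates oxidises retinol to retinal. It stood at 68.3, 72.6 and 63.4 CPM in females 1 to 3, and at 51.2, 54.4 and 57.6 CPM in males 1 to 3. No female library overlapped a male library, as for 17.3% of all unigenes tested. The log2 difference was 0.32 (SE 0.08; adjusted p = 0.075 by edgeR), with a 95% interval of 0.14 to 0.50. It passed in 2 of 12 alternative settings, with a stricter filter on low counts (edgeR adjusted p = 0.0397) and with hymenopteran closest entries alone (edgeR adjusted p = 0.0337). Over all 12 settings the adjusted p ranged from 0.0337 to 0.342.

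The most abundant retinol dehydrogenase was an 11 isoform X2 unigene (TRINITY_DN24924_c0_g1). Its level was 266 ± 23.2 TPM in females and 293 ± 10.7 TPM in males, and its CPM values were 257, 266 and 221 in females 1 to 3 and 303, 289 and 288 in males 1 to 3. These CPM values did not overlap between the sexes, as for 17.3% of all unigenes tested. The log2 difference was -0.24 (SE 0.09; adjusted p = 0.239 by edgeR), with a 95% interval of -0.43 to -0.05 that is not adjusted for the number of unigenes. The other retinol dehydrogenase 11 unigenes, TRINITY_DN24924_c0_g5 and TRINITY_DN24924_c0_g2, differed by 0.06 (SE 0.11) and -0.20 (SE 0.23) on the log2 scale, with adjusted p = 0.92 and 0.83 by edgeR. None of the 3 unigenes of this cluster was called in either direction.

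The remaining names spanned a wide range of levels. An epidermal retinol dehydrogenase 2 unigene (TRINITY_DN25657_c1_g4) stood at 220 ± 34.8 TPM in females and 192 ± 23.9 TPM in males, second in both sexes. A second one (TRINITY_DN25657_c1_g9) was among the scarcest, at 2.14 ± 1.11 and 2.88 ± 0.80 TPM. Retinol dehydrogenase 12-like (TRINITY_DN26405_c1_g3) stood at 36.1 ± 2.01 and 33.4 ± 4.98 TPM, and retinol dehydrogenase 13-like (TRINITY_DN26065_c1_g3), named for a mitochondrial enzyme of vertebrates, at 28.1 ± 2.02 and 25.4 ± 1.93 TPM. These 4 had log2 differences between -0.51 and 0.09 and adjusted p between 0.739 and 0.989 by edgeR.

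Ordered by mean TPM among the 11 retinol dehydrogenases, c1_g1 was number 3 in females and number 6 in males, while c2_g8 was number 11, the scarcest, in females and number 8 in males. In females c1_g1 lay clear of its neighbours, since its lowest library (77.9 TPM) was above the highest of c2_g7 (63.3 TPM), whose range overlapped that of retinol dehydrogenase 10-B (56.9 to 64.3 TPM). In males c1_g1 (29.9 to 35.7 TPM) overlapped the 12-like unigene (29.2 to 38.9 TPM), and c2_g8 (11.7 to 19.6 TPM) overlapped the less abundant 11 isoform X2 unigene (13.8 to 14.9 TPM). In females c2_g8 (0.81 to 1.72 TPM) overlapped the second epidermal unigene (1.49 to 3.42 TPM). The pair together held between 9.91% and 12.2% of the summed TPM of the 11 in females, against 6.33% to 7.39% in males. This share and the ranks of the pair rest on the contrast it was picked on.

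**Figure D3:**
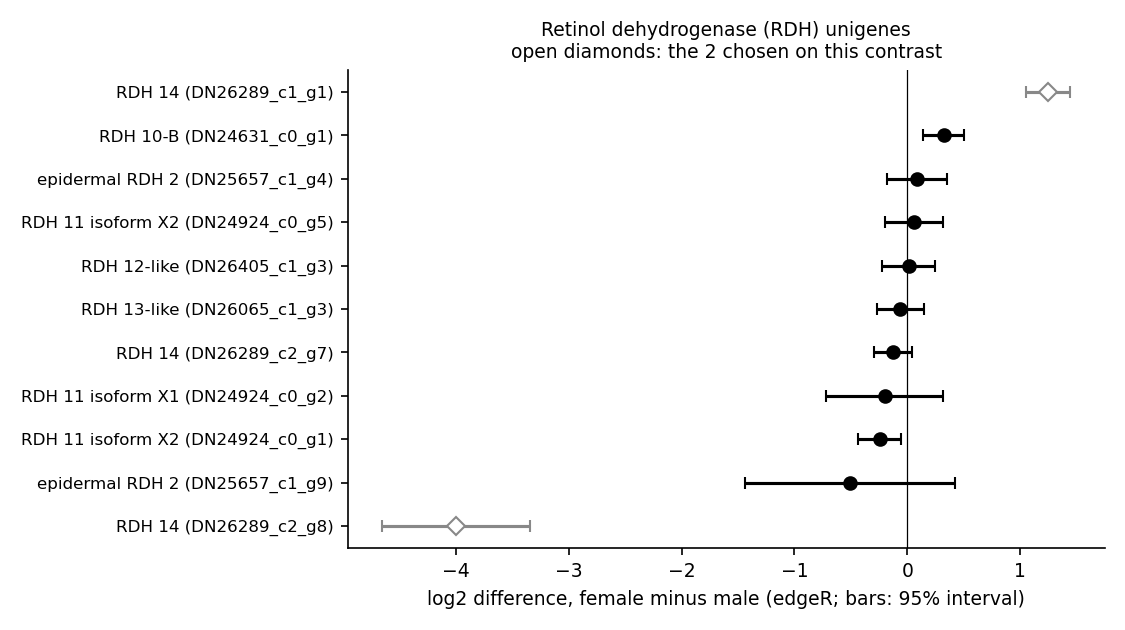
Log2 difference (female minus male, edgeR) of the 11 retinol dehydrogenase (RDH) unigenes with a hymenopteran closest entry, with 95% intervals. The 2 open diamonds, at 1.25 and -4.00, were picked on this contrast, and the 9 filled points lie between -0.51 and 0.32.

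A list of word matches around the supply and carriage of the visual chromophore, with a hymenopteran closest entry, was described next. Of 18 such unigenes 14 were tested, 2 were higher in females, none was higher in males and 12 were not called by edgeR (6 of the 14 had p under 0.05 before adjustment, and DESeq2 called 3). The edgeR calls are 14.3% of those tested, against 2.8% of all unigenes and 4.69% of those with a hymenopteran closest entry. Over all unigenes 2543 of 21196 (12%) had p under 0.05 before adjustment and DESeq2 called 3.85%. The median log2 difference was 0.10, beside 0.00 over all unigenes. The list mixes families whose members serve other purposes too, such as lipid uptake. It also holds a retinoic acid receptor RXR unigene (TRINITY_DN24871_c1_g9), not named for a supplier or carrier of chromophore. The alpha-tocopherol transfer protein-like TRINITY_DN26068_c3_g4 had the deposited gene name wbl, unlike its closest entry. Neither of these was called.

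An alpha-tocopherol transfer protein-like unigene (TRINITY_DN19274_c0_g1), of a family of lipid carriers that in Drosophila includes a retinoid-binding protein, was higher in females. It stood at 42.0, 46.9 and 38.5 CPM in females 1 to 3, and at 12.7, 11.2 and 13.6 CPM in males 1 to 3. The log2 difference was 1.76 (SE 0.11, adjusted p = 8.63e-06 by edgeR), or 3.39-fold. The sexes did not overlap, as for 17.3% of all unigenes tested. A scavenger receptor class B member 1 unigene (TRINITY_DN25504_c0_g2), of a receptor family that in Drosophila takes up carotenoids, was also higher in females, at 742 ± 49.4 and 541 ± 62.3 CPM (log2 difference 0.46, SE 0.10; adjusted p = 0.0331 by edgeR). This call was lost in 4 of 12 settings, without female 2, female 3, male 1 or male 3 (edgeR adjusted p = 0.0802 to 0.18). The deposited gene name of TRINITY_DN25504_c0_g2 was Snmp2, unlike its closest entry. Its part in carotenoid uptake was not tested. The most abundant member, a putative beta-carotene-binding protein (TRINITY_DN9608_c0_g1), stood at 1129 ± 201 and 1055 ± 76.9 CPM (log2 difference 0.10, SE 0.12; adjusted p = 0.846 by edgeR). The carotenoid isomerooxygenase (TRINITY_DN25441_c0_g1; chosen after its values were seen), which cleaves carotenoids to retinal in Drosophila, stood at 111 ± 11.7 and 149 ± 43.5 CPM, with males 2 and 3 above all females and male 1 within their range (adjusted p = 0.375 by edgeR).

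Opsins, which bind the chromophore, gave 1 call. The ultraviolet-sensitive opsin (TRINITY_DN25377_c2_g2) was higher in females, with means of 554 ± 47.5 and 407 ± 25.5 CPM (log2 difference 0.44, SE 0.09; adjusted p = 0.0213 by edgeR). This call was lost without female 2 or without any 1 of the males (edgeR adjusted p = 0.0541 to 0.13). The most abundant unigene, rhodopsin (TRINITY_DN25377_c1_g17), had means of 6625 ± 236 CPM for females and 6656 ± 569 for males (adjusted p = 0.992 by edgeR). The words also matched a phosphodiesterase subunit. Of the 8 unigenes 7 were tested, 2 had p under 0.05 before adjustment and DESeq2 called 1. The second of these 2 was the short wavelength sensitive opsin (TRINITY_DN22711_c0_g1, chosen after its values were seen). It lay the other way, at 760 ± 64.9 CPM for females and 899 ± 70.1 for males (log2 difference -0.24, SE 0.09, adjusted p = 0.301 by edgeR). With 7 tested, 1 edgeR call is 14.3%, beside 4.69% of unigenes with a hymenopteran closest entry, and over all unigenes the shares were 2.8% by edgeR, 12% before adjustment and 3.85% by DESeq2.

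Of 20 other short-chain dehydrogenases/reductases, all tested, 1 was higher in males, none was higher in females and 19 were not called by edgeR (4 of the 20 had p under 0.05 before adjustment, and DESeq2 called 2). The edgeR call is 5% of the list, near the 4.69% called among all unigenes with a hymenopteran closest entry (2.8% of all unigenes). Over all unigenes 12% had p under 0.05 before adjustment and DESeq2 called 3.85%. The list's median log2 difference was 0.03. The called unigene, 15-hydroxyprostaglandin dehydrogenase-like (TRINITY_DN25747_c2_g2), is named for the enzyme that inactivates prostaglandins in mammals. Its deposited gene name was bacC, unlike its closest entry. This unigene was also the most abundant of the list. It stood at 202, 162 and 149 CPM in females 1 to 3, and at 399, 478 and 382 CPM in males 1 to 3. The log2 difference was -1.30 (SE 0.13, adjusted p = 0.000204 by edgeR), or 2.46-fold higher in males. The sexes did not overlap, as for 17.3% of all unigenes tested. Without female 1 the number of calls in this list was 3.

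**Figure D4:**
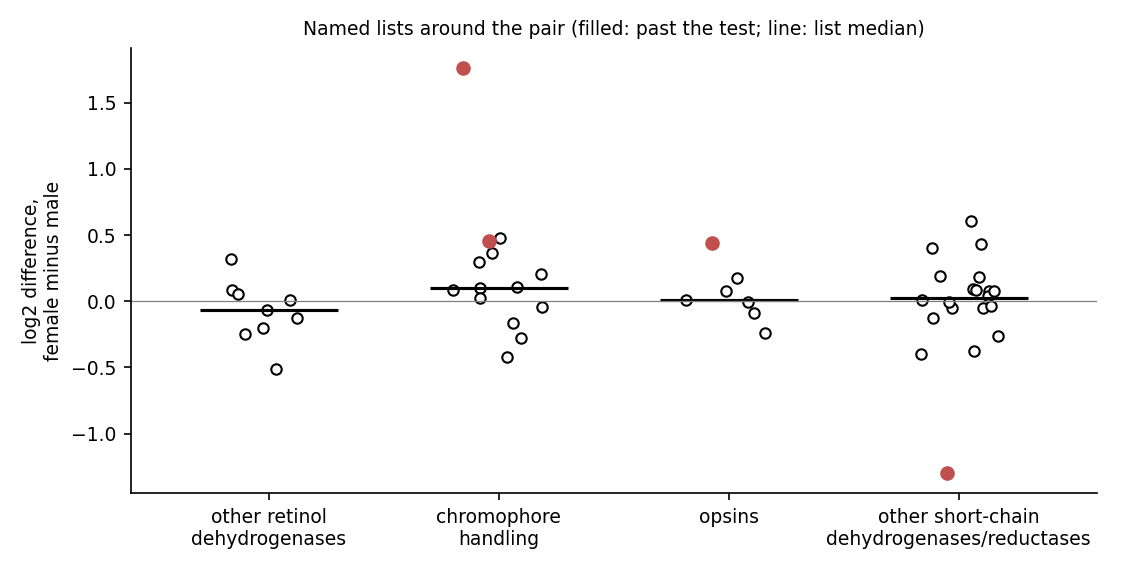
Log2 difference (female minus male, edgeR) of each tested unigene in 4 lists chosen by name (9 other retinol dehydrogenases, 14 of chromophore handling, 7 opsins and 20 other short-chain dehydrogenases/reductases). Filled points passed the test at an adjusted p under 0.05, horizontal spread has no meaning, and lines are list medians, which lie between -0.06 and 0.10.

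The unigenes whose profile over the 6 libraries was most like that of each member were found by the distance between log2(CPM + 1) profiles, each centred on its own mean, among tested unigenes with an informative description. Nearest to c1_g1 were an odorant receptor 13a-like unigene (TRINITY_DN26229_c1_g4; distance 0.228; 12.99 ± 0.52 CPM for females and 4.81 ± 1.03 for males) and a vitellogenin-2-like unigene (TRINITY_DN25701_c0_g9; 0.231; 8.09 ± 0.18 and 2.84 ± 0.50 CPM). Next were the band 7 protein TRINITY_DN24641_c1_g2 (0.286; 157 ± 4.51 and 65.9 ± 3.22 CPM) and a ropporin-1A-like unigene (TRINITY_DN24856_c0_g13; 0.297; 37.3 ± 0.95 and 18.1 ± 1.65 CPM). All 4 separated the sexes, as did 17.3% of all unigenes tested, and the choice of profiles near that of c1_g1 favours this.

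Nearest to c2_g8 was TRINITY_DN25347_c0_g4 (distance 0.356), named nose resistant to fluoxetine protein 6-like, of a membrane protein family first named in nematodes. It stood at 3.37, 2.06 and 2.55 CPM in females 1 to 3, and at 33.1, 30.0 and 25.6 CPM in males 1 to 3. Female 1 was the highest female and male 3 the lowest male in it, as in c2_g8. The next were more distant: a putative B1 protein-like unigene (TRINITY_DN26491_c0_g4; distance 0.787; 586 ± 70.9 and 3802 ± 66.6 CPM), the peroxisomal phytanoyl-CoA dioxygenase TRINITY_DN25628_c3_g1 (0.999; 10.6 ± 2.10 and 69.2 ± 7.71 CPM) and general odorant-binding protein 56d (TRINITY_DN25379_c2_g1; 1.29; 68.1 ± 7.24 and 336 ± 14.2 CPM). The distance includes the difference between the sexes on which the pair was picked. It also includes the deviations of single libraries, so a shared order of libraries is favoured by this choice.

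The heads showed the markers of the labelled tissue, and some of these moved with sex. In bulk RNA, fewer cells of a type and less RNA per cell cannot be told apart. Summed over 137 odorant and olfactory receptor unigenes, which mark antennal neurons, the level was 846 to 1008 CPM in female libraries and 431 to 444 CPM in male libraries, the same direction as c1_g1. Among the 102 with enough counts, 37 passed as female-high and 5 as male-high, where 1.69% and 1.11% of all unigenes did. Fat body markers (10 unigenes) summed to 6268 to 6925 CPM in females and 7920 to 8020 CPM in males, and muscle markers (42 unigenes) to 21658 to 30786 and 33830 to 38548 CPM, the same direction as c2_g8. By unigene the fat body list ran the other way, with a median log2 difference of 0.59, 2 higher in females and 1 in males among 7 tested. The muscle list had a median of -0.05, with 1 higher in females and 4 in males among 40 tested. Photoreceptor markers (14 unigenes) overlapped, at 15853 to 17616 CPM in females and 16860 to 18399 CPM in males, with 1 of 13 tested higher in females. The counts called in the fat body, muscle and photoreceptor lists stand beside the same 1.69% female-high and 1.11% male-high over all unigenes, and all marker lists were limited to hymenopteran closest entries, of which 4.69% were called. No marker unigene was at 0 in all libraries, and the part of these differences in the levels of the pair was not tested. Total counts per library ran from 17937390 to 19517887, of which between 80.9% and 83.3% fell on unigenes with a hymenopteran closest entry.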

How the data were processed

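The 6 head libraries, 3 of each sex, were grouped by the labelled sex. Per the labels' protocols, the authors cleaned reads with Cutadapt and in-house scripts, checked them with FastQC and assembled them with Trinity 2.4.0. Which counter, annotation databases and test they used, and whether counting used strand, is not given in the sources here. The deposited table holds columns headed as counts per unigene. The authors' counter is not stated, and the deposited values were read here to be expected counts, not normalized, since between 8.81% and 9.5% per library are not whole and the totals differ between libraries. Per the file headers it also holds TPM and the authors' log2 fold change, p-value and FDR. Columns of samples without a matching label numbered 0.

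Counts were rounded and tested with edgeR 4.0.16 in R 4.3.3 (TMM, filterByExpr at 10 counts and 15 in total, quasi-likelihood test, Benjamini-Hochberg adjustment over 21196 unigenes, threshold 0.05). SE is the log2 difference divided by the square root of F. The biological coefficient of variation was 14.49%. TPM was used for levels between unigenes. Alternatives were leaving out each library, a replicate block, DESeq2 1.42.0 size factors and Wald test, no filter, a filter of at least 50 counts in 3 libraries, and unigenes with a hymenopteran closest entry alone. Counts were simulated for 20417 unigenes with the spread of the female and male libraries. On these edgeR recovered 54.6% of 97 unigenes changed by 1 and 84.7% of 98 changed by 2 on the log2 scale. It made 14 false calls (9.3% of its calls), a larger share than the threshold of 0.05 aims at. DESeq2 recovered 60.8% and 85.7% of the same unigenes, with 23 false calls (13.9% of its calls). Summaries used pandas 2.3.3 and scipy 1.17.1 under Python 3.11.15.

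The members and lists were chosen with earlier results of these data known. The rule for named unigenes took the pair, described unigenes of the cluster, other retinol dehydrogenases with a hymenopteran entry, in each further list the 2 with the smallest p per direction past the test (or the smallest p) and the highest mean, and the 4 nearest profiles of each member. Closest entries were sorted into Hymenoptera by genus.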

Additional observations from a re-analysis of the deposited data

How the results depend on the processing

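The log2 difference of c1_g1 ran from 1.19 to 1.30 and that of c2_g8 from -4.40 (without female 1) to -3.81 when a library was left out, and that of the added counts from 0.50 to 0.64. Each kept its direction under all 12 settings, and c2_g8 without female 1 was the 1 case that moved by more than the spread between replicates. With a pseudocount of 0.1 in place of 1 the log2 TPM of c1_g1 minus c2_g8 moved from 5.30 to 6.12 in females, where c2_g8 is near 1 TPM. Of the 9 other retinol dehydrogenases 0 passed, and 1 passed with a stricter filter and 1 with hymenopteran closest entries alone, retinol dehydrogenase 10-B in both; none of the other cluster unigenes passed in any setting. The chromophore list had 2 calls, 1 to 3 when a library was left out (1 without female 2 or male 3). The other short-chain dehydrogenases had 1 call, 2 with a replicate block, 2 by DESeq2 and 1 to 3 when a library was left out. Over all unigenes the 593 calls became 357 to 688 (358 without female 2, 357 without male 2), and DESeq2's Wald test called 817. Values near 0 turned sign in unigenes that had no call. Leaving out a library gave -0.0019 to 0.13 for TRINITY_DN24924_c0_g5, -0.039 to 0.18 for TRINITY_DN25657_c1_g4, -0.11 to 0.026 for TRINITY_DN26065_c1_g3, -0.058 to 0.12 for TRINITY_DN26405_c1_g3, -0.035 to 0.22 for TRINITY_DN9608_c0_g1 and -0.077 to 0.041 for TRINITY_DN25377_c1_g17, the last also 0.011 with the stricter filter and 0.012 with hymenopteran entries alone. The cause of these changes was not tested. Replicate numbers gave no sign of pairing in the values. The deviations of same-numbered libraries from their sex means correlated at -0.01, -0.06 and -0.02, those of different-numbered ones at -0.06 to 0.10. With 3 libraries per sex this cannot show whether libraries were prepared in pairs. With the replicate block the log2 differences were 1.25 for c1_g1 and -4.00 for c2_g8. Depth limits c2_g8 most in females, where a library holds 15 to 30 of its reads.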

Other observations

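Calls in both directions within 1 assembly cluster were counted over the table after the pair was seen. Of 3078 clusters with at least 2 unigenes tested, 77 held at least 2 calls and 23 held calls in both directions, the cluster of the pair included. In 2 of the 23 a female-high and a male-high unigene had a closest entry of the same name and species. Whether the shared name stands for 1 database protein was not checked. One of these 2 clusters was that of the pair. The other was TRINITY_DN25614, where both unigenes matched an uncharacterized protein of Microplitis demolitor. Its unigene TRINITY_DN25614_c0_g14 had means of 15.5 ± 8.59 CPM for females and 147 ± 33.1 for males (log2 difference -3.26; adjusted p = 0.000185 by edgeR), and TRINITY_DN25614_c1_g1 at 1602 ± 112 and 1037 ± 41.8 CPM (log2 difference 0.63; adjusted p = 0.00207 by edgeR). The scarcer unigene was the male-high one there too. In the other 21 clusters the unigenes called in opposite directions had closest entries of different name or species, or none.

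The words retinol dehydrogenase matched 14 unigenes in all, of which 3 had their closest entry in the mouse or human and were set aside. One of these, also named retinol dehydrogenase 14 (TRINITY_DN7727_c0_g1, 461 bases), had between 3 and 13 counts per library, and a retinol dehydrogenase 7 precursor (TRINITY_DN25979_c0_g1) had 13.9 ± 1.99 CPM in females and 16.8 ± 0.77 CPM in males.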
